A study of Mus musculus with 51 samples.

Results

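The comparison of noise with mock exposure in supporting-cell regions of the mouse cochlea rests on 22 of the 51 captured regions of the series, 8 from noise-exposed and 14 from mock-exposed animals, chosen by their titles. Expression was measured with GeoMx, in which barcoded probes bound to a tissue section are released by light from a drawn area and counted by sequencing. The mice were CBA/CaJ males of 16 weeks, 5 for each treatment, with no other allele or agent named, and all sections were fresh-frozen and 6 µm thick. The noise group had received broadband noise at 100 dB SPL for 2 h while awake; the mock group had been mock-exposed, without noise. Titles of both groups give 2 h and a further 4 h, as do the treatment entries of the noise samples, whereas the series' design text placed collection directly after it, so the sources give the time after exposure in both ways. The series title names a compound acting through heat shock signalling, but no region came from a treated animal.

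Limits of the groups apply to every test. No label gives the animal behind a region, and the 8 and 14 regions outnumber the 5 animals of each group. Regions of a common animal are therefore present, and p-values computed over regions are too small throughout. Areas of the noise and mock groups carried different name prefixes, Noise_ex and Ctrl, without a prefix common to them. These prefixes name the treatment and do not state a slide or scan. If slides or scans differed between the groups, their effect cannot be told apart from that of treatment. Every supporting-cell region lay in an area in which a neuron region had also been drawn. The listed read files of noise replicate 8 named a further well besides its own.

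Supporting cells of the inner ear are the non-sensory cells that hold and nourish hair cells and, in the spiral ganglion, the satellite and Schwann cell glia that wrap neuron cell bodies and their axons. Myelinating Schwann cells make the compact myelin that lets auditory nerve fibres conduct quickly, and satellite glia keep the ion and lipid surroundings of the cell bodies. The heat-shock response is a protective program in which the factor HSF1, freed from chaperones when proteins unfold, binds heat-shock elements in DNA and raises chaperone genes. Loud sound is known to stress hair cells, their synapses and the nerve.

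The label "supporting cells" was checked against marker genes. The 25 satellite and Schwann cell genes tested were higher in mock supporting-cell than in mock neuron regions by a median of 0.74 on the log2(signal + 1) scale, and the 20 spiral ganglion neuron genes were lower by a median of 1.37, against a median of 0.14 higher over all 4686 genes tested. Pmp22, a compact myelin protein, was higher by 1.60, and Nefl, a neurofilament subunit, had a difference of -2.10. Of 34 marker genes of organ of Corti supporting cells, 7 were analysed here and 6 were tested; Sox2, the transcription factor that marks these cells, lay below the filter on low values, with a mean signal of 1.99 after noise and 1.66 after mock exposure. The 10 genes of stria vascularis, fibrocytes, bone and matrix were also higher in mock supporting-cell regions, by a median of 0.56. Coch, of that list, was higher by 1.74. The medians were 0.44 for 5 blood cell genes and 0.35 for 6 endothelial and mural genes. They were 0.21 for the 6 organ of Corti genes and 0.13 for 4 hair cell genes. The regions therefore carried a glial signal beside genes of other non-neuronal cells, and the organ of Corti markers could not check the rest of the label. In captured regions, fewer cells of a type and less RNA per cell cannot be told apart.

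Few genes passed the test, and Elof1 stood first. Of 4686 genes, 4 differed between noise and mock regions at an adjusted p below 0.05 (limma with Benjamini-Hochberg adjustment), which is 0.0854% of the genes tested: 1 was higher after noise (0.0213%) and 3 were lower (0.064%). Elof1, which encodes a conserved elongation factor that travels with RNA polymerase II and takes part in transcription-coupled DNA repair, rose. Pmp22 and Aatk, the latter a membrane-anchored kinase with high expression in nervous tissue, fell. An unadjusted p below 0.05 was found for 399 genes (8.51%), 137 higher (2.92%) and 262 lower (5.59%). Under quantile normalization 5 genes were called, 2 higher and 3 lower, and the same split was found with total reads in place of the upper quartile. The count was 8 without noise replicate 3 and 7 without noise replicate 6. As tests over regions, these give p-values that are too small.

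**Figure D1:**
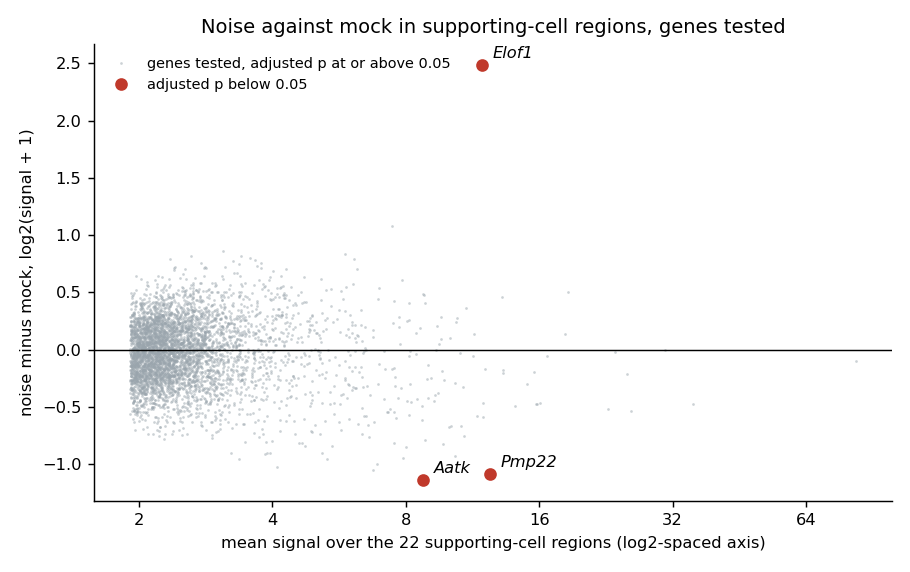
Each point is a gene tested, apart from a few not reported here; the horizontal axis is the mean signal over the 22 supporting-cell regions on a log2-spaced axis, and the vertical axis is noise minus mock on the log2(signal + 1) scale. Elof1, Aatk and Pmp22, with an adjusted p below 0.05, are drawn in red; Elof1 lies at 2.49 and Aatk and Pmp22 at -1.14 and -1.09, while the median of all genes lies at -0.02.

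The 250 bases before the start of each named gene past the threshold are shown because the series addresses the heat-shock pathway, whose factor binds elements built from GAA and TTC blocks. The sequences are from RefSeq for GRCm38.p6, 5′ to 3′ on the gene's strand, for the first start listed: Elof1 at chr9:22117196-22117445 (minus strand, 1 start listed), Aatk at chr11:120047153-120047402 (minus strand, 4 starts listed) and Pmp22 at chr11:63128732-63128981 (plus strand, 4 starts listed). Capitals mark matches to GAANNTTC or TTCNNGAA, which read the same on both strands, and to the SOX-type motif ACAAAG on either strand.
Elof1: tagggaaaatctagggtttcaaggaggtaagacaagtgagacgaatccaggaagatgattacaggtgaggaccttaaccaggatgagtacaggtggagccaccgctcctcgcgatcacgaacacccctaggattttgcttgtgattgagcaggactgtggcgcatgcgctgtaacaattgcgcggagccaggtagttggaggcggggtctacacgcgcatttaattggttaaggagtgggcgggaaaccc
Aatk: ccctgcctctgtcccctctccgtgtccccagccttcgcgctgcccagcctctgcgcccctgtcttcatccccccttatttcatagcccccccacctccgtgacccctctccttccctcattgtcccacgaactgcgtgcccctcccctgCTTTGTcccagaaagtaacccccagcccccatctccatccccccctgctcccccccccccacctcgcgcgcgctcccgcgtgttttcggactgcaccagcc
Pmp22: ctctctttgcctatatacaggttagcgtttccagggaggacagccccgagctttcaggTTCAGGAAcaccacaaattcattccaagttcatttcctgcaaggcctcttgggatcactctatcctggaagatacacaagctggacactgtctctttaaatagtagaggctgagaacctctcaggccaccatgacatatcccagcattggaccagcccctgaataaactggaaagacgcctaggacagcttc
The letters of a heat-shock element were not found in the Elof1 and Aatk windows and occurred 1 time in the Pmp22 window, first base at -192 from the start. The SOX-type letters occurred 1 time, in the Aatk window. Of all 27025 promoter windows of this length, 12.9% held the heat-shock letters and 16.5% the SOX-type letters. Of the 3742 windows of genes tested, 11.2% and 14% did. Of the 19 glia genes tested that had a window, 5 (26.3%) held the heat-shock letters and 5 (26.3%) the SOX-type letters. The heat-shock letters were in 3 of 17 windows of Hsp70 genes, 0 of 6 of Hsp90 genes and 6 of 60 of ribosomal protein genes. The SOX-type letters were in 0, 0 and 6 of these windows. In the list with heat-shock factors 1 of 6 windows held each. A match describes the letters alone and says nothing of binding.

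Elof1 was low in mock regions and high but uneven after noise. The deposited signal, which the authors had scaled to a common upper quartile in every region, was 6.24 in the lowest, 27.0 in the median and 57.7 in the highest of 7 noise regions, and 1.04, 2.49 and 9.36 in the lowest, median and highest of 14 mock regions. All 7 noise regions lay above the mock mean, and only the lowest of them, replicate 6, which was also the deepest noise region, fell inside the mock range. In reads, the medians were 18 and 2.5, and 6 of 14 mock regions were at 1 read, the floor of the files. Noise replicate 7 had no number for Elof1. The means were 27.9 ± 20.0 (SD, n = 7) with noise and 3.85 ± 3.03 (n = 14) without, a difference of 2.49 on the log2(signal + 1) scale (SE 0.28, limma adjusted p 1.01e-15, over regions and too small). That SE draws on the spread common to genes of like mean; from the gene's own regions the SE was 0.44, and permuting the treatment over these 21 regions (exact test on mean log2 values, two-sided, 116280 assignments) gave p 6.88e-05. Like most named genes, Elof1 was picked by its p over these same regions, so the exact p-values of such genes are not separate evidence. The gene passed the threshold in all 38 alternatives that could give it a value, with differences from 1.31 (pseudocount 10) to 3.16 (negative probe subtracted).

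Rgs19, an inhibitor of G protein signalling that speeds GTP hydrolysis by Gα subunits, did not pass the threshold. Its signal was 8.32, 10.9 and 15.6 in the lowest, median and highest of 7 noise regions and 1.56, 4.68 and 19.8 in mock regions. All 7 noise regions lay above the mock mean, but 1 mock region exceeded every noise region, and noise replicate 4 had no number. The difference was 1.08 (SE 0.28, limma adjusted p 0.0724; exact permutation p 0.00427), and it passed in 9 of 38 alternatives, among them quantile normalization (1.26, adjusted p 0.00792) and the fit without mock replicate 8 (1.23, adjusted p 0.0177). Adjusted p-values ranged up to 0.433.

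The remaining gene that was named for its small p and had a higher mean after noise was Olfr1458, an olfactory receptor gene, at a median of 5 reads against 1 and a difference of 0.86 (SE 0.26, limma adjusted p 0.187, between 0.0441 and 0.462 over the alternatives that gave one). Olfactory receptor genes have no established role in the cochlea and stand here for genes near background. Of 512 such genes tested, 323 had a difference above 0, and 36.9% one below 0, against 53% of all genes tested. Their median was 0.09, and up to 0.26 with the negative probe subtracted. With the mean of olfactory receptor genes as a covariate it was 0.01, a value that this covariate draws towards 0 by construction.

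Pmp22 encodes the peripheral myelin protein whose dosage causes inherited neuropathy. Its signal was 4.16 in the lowest, 6.24 in the median and 12.5 in the highest of 8 noise regions, and 6.24, 15.1 and 23.4 in mock regions. All 8 noise regions lay below the mock median, and apart from replicate 2, at 12.5, the noise regions reached 7.48 at most, above the lowest mock region alone. The means were 6.78 ± 2.53 (SD, n = 8) and 15.6 ± 4.82 (n = 14), a difference of -1.09 (SE 0.24, limma adjusted p 0.00804, over regions and too small; exact permutation p 8.13e-05). It passed in 40 of 41 alternatives, the exception being the fit with the replicate number as a block (-1.11, adjusted p 0.122). Replicate numbers did not pair the regions, so that block has no known meaning, here or for the next gene.

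Aatk was at 1.04, 5.07 and 8.32 in the lowest, median and highest noise region and at 6.24, 10.4 and 20.3 in mock regions, with medians of 5 and 10 reads. All 8 noise regions lay below the mock median, and the ranges overlapped between 6.24 and 8.32. The means were 4.70 ± 2.24 (SD, n = 8) and 11.1 ± 3.85 (n = 14), a difference of -1.14 (SE 0.26, limma adjusted p 0.0102, over regions and too small; exact permutation p 4.69e-05). Aatk lost its call in 4 of 41 alternatives: without noise replicate 7, its lowest region (-0.95, adjusted p 0.229), without noise replicate 8 (-1.09, 0.0583), with the replicate block (-1.17, 0.122) and by edgeR on the recovered reads (-1.17, 0.0723).

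**Figure D2:**
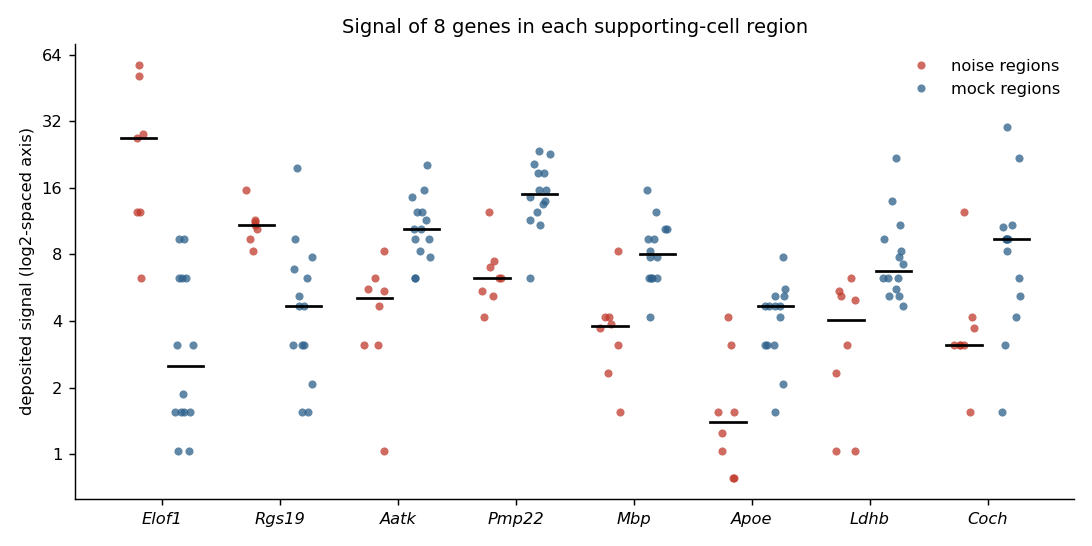
Each point is the deposited signal of a gene in 1 supporting-cell region, on a log2-spaced axis, red for the noise regions and blue for the 14 mock regions, with black bars at the medians. There are 8 noise regions for each gene except Elof1 and Rgs19, which have 7; Elof1 medians are 27.0 and 2.49 and Pmp22 medians 6.24 and 15.1.

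The glia genes lay lower after noise as a group, and in neuron regions 20 of the 25 tested also lay below 0 (median -0.17). All 25 satellite and Schwann cell genes tested, of 37 in the list and 26 analysed here, had a difference below 0, against 53% of all genes tested, and their median was -0.39 against -0.02 over all genes. Of the 25, 2 passed the threshold as lower (Pmp22 and Aatk), where 0.064% of all genes tested did, and 0 rose. Between mock supporting-cell and mock neuron regions Pmp22 was higher by 1.60, but Aatk only by 0.50 (limma adjusted p 0.0597), short of the threshold. At an unadjusted p below 0.05, 10 were lower and 0 higher, where 5.59% and 2.92% of all genes tested were. On the recovered reads edgeR called 1 and DESeq2 4 of them, all lower, among 2 and 12 calls over all genes. Summed over the list, the signal was 69.6 in the lowest, 86.9 in the median and 118.5 in the highest noise region, and 121.6, 146.6 and 208.9 in mock regions, so the sums did not overlap. Over 29 alternatives the median ran from -0.51 (negative probe subtracted) to -0.33 (without noise replicate 7), and 22 to 25 genes stayed below 0. The list was chosen with earlier results of these regions known and gives no independent evidence of its direction.

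Among glia genes short of the threshold, Mbp, myelin basic protein, was at a median of 3.82 after noise and 8.06 after mock exposure, with a difference of -1.0 (SE 0.27, limma adjusted p 0.0908; exact permutation p 0.000141). Noise replicate 3, at 8.32, was the only noise region above the mock median. Apoe, a lipid carrier made by glia, was at medians of 1.40 and 4.68, with 4 of 8 noise and 1 of 14 mock regions at 1 read and a difference of -0.96 (SE 0.27, adjusted p 0.135). Fa2h, which hydroxylates the fatty acids of myelin lipids, was at medians of 2.08 and 4.68 with a difference of -0.91 (SE 0.27, adjusted p 0.187). Art3 and Kcna1 had differences of -0.90 and -0.73. Kcna1 encodes a potassium channel of the axon beside the node, so its place in the list does not make it particular to glia. Cnp, an enzyme of non-compact myelin, had a difference of -0.57, and Sox10, the transcription factor that defines the lineage, one of -0.39. At the other end of the list S100b lay at -0.02, Prx, the periaxin of Schwann cells, at -0.03, and Apod, a lipocalin of glia, at -0.17, the latter 0.07 under quantile normalization. None of these genes passed the threshold.

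Genes of other cochlear cells gave no call by limma, nor by edgeR or DESeq2, which were not summarised for the macrophage gene. At an unadjusted p below 0.05, limma found 1 higher and 3 lower in the list of stria, fibrocytes, bone and matrix, 1 lower among organ of Corti genes, 1 lower among hair cell genes and 0 in the endothelial, blood cell and macrophage lists. Over all genes tested 2.92% were higher and 5.59% lower at that level. Coch, the cochlin of fibrocytes, was at a median of 3.12 after noise and 9.36 after mock exposure (difference -0.95, SE 0.27, limma adjusted p 0.141; exact permutation p 0.0204), with ranges of 1.56 to 12.5 and 1.56 to 30.1 that overlapped widely. Otos, otospiralin of fibrocytes, had a difference of -0.84 and Postn, a matrix protein, one of 0.48; the 10 genes of stria vascularis, fibrocytes, bone and matrix had a median of -0.17, with 6 below 0. The 6 organ of Corti supporting-cell genes were all below 0, with a median of -0.19 (-0.26 to -0.10 over 29 alternatives, with 4 to 6 below 0); Cdkn1b, the cell cycle inhibitor that keeps these cells quiescent, was at -0.57 and Sparcl1, the most abundant of the list, at -0.01. Of 4 hair cell genes, 2 were above 0, with Myo6, an unconventional myosin, at -0.54 and Slc17a8, the vesicular glutamate transporter of inner hair cells, at 0.26. The 6 endothelial and mural genes and the 5 blood cell genes had medians of 0.09 and 0.35 (0.04 to 0.30 and 0.13 to 0.65 over 29 alternatives), and S100a8 and S100a9, calgranulins of neutrophils, had differences of 0.44 and 0.46 while Hba-a1, an alpha globin, had one of -0.44. C1qc, the only macrophage gene tested, was at -0.30.

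Neuron genes in the same regions were centred near 0. The 20 spiral ganglion neuron genes had a median of -0.04, with 13 below 0, and the median ran from -0.14 to 0.06 over 29 alternatives, changing sign. Their mean log2(signal + 1) per region ranged from 1.72 to 2.87 after noise and from 2.12 to 2.68 after mock exposure, so the noise regions spanned more than the mock range on both sides. Nefl was at 7.28, 18.7 and 22.6 in the lowest, median and highest noise region and at 4.16, 9.88 and 20.3 in mock regions, a difference of 0.46 (SE 0.23, limma adjusted p 0.579; exact permutation p 0.0868). Calb2, the calcium buffer calretinin, and Slc17a7, a vesicular glutamate transporter, had differences of 0.42 and -0.61. Snap25 and Tubb3 lay at -0.03 and -0.04, with signs that changed under several scalings, total reads and quantile normalization for Snap25 and quantile normalization for Tubb3.

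**Figure D3:**
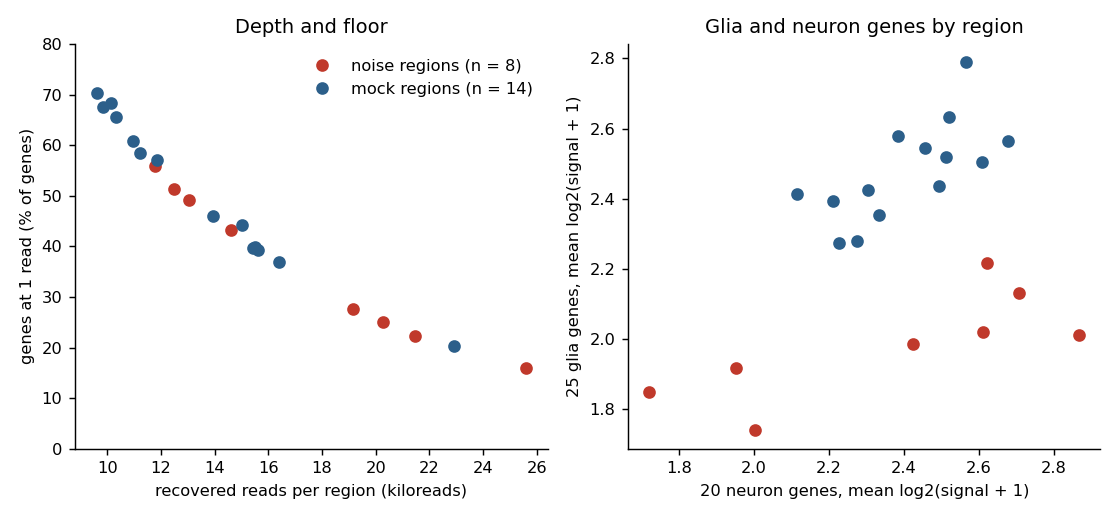
Left, each point is 1 supporting-cell region by its recovered reads (axis in kiloreads) and its share of genes at 1 read (%); right, the same regions by the mean log2(signal + 1) of 20 neuron genes and of 25 glia genes. Noise regions are red (n = 8) and mock regions blue (n = 14); for the glia genes the noise regions lie between 1.74 and 2.22 and the mock regions between 2.27 and 2.79, while for the neuron genes the groups overlap.

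Depth and the share of genes at the floor differed between the groups, though no such measure passed after adjustment. Recovered reads per region ranged from 11768 to 25601 after noise (median 16880.5) and from 9606 to 22924 after mock exposure (median 12884) over 6248 genes, and the upper quartile gene had 2 to 5 reads. The share of genes at 1 read was 36.3% ± 15.3 (SD, n = 8) in noise regions and 51.03% ± 15.1 (n = 14) in mock regions (two-sided exact permutation p 0.041, 0.131 after Benjamini-Hochberg adjustment over 5 measures). The negative probe differed by -0.12 (exact permutation p 0.271, adjusted 0.271), mean log2 of reads by 0.35 (p 0.0534, adjusted 0.131), the mean log2 signal of olfactory receptor genes by 0.07 (p 0.092, adjusted 0.131) and the 95th percentile of signal by -0.39 (p 0.105, adjusted 0.131), all over regions and too small. A read was worth 1.56 units of signal in the 7 mock regions and 1 noise region whose upper quartile was 2 reads. Without those 8 regions 4 genes were called and all 4 were among the calls above, and the glia median was -0.47. With log2 total reads as a covariate 4 genes were called, and the glia median was -0.49.

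Protein-folding genes, which the series addresses, held no call by limma or edgeR and 1 by DESeq2 on the recovered reads (Cryab, -0.93, adjusted p 0.0284). At an unadjusted p below 0.05, limma found 3 lower in the list with heat-shock factors, 1 lower in the Hsp70 list, 1 higher and 1 lower in the Hsp90 list, and 1 higher and 2 lower in the list of the unfolded protein response. Over all genes tested 2.92% were higher and 5.59% lower at that level. HSF1's own gene, Hsf1, was at a median of 1.04 after noise and 3.12 after mock exposure, with 7 of 8 noise regions and 5 of 14 mock regions at 1 read, and a difference of -0.74 (SE 0.23, limma adjusted p 0.253; exact permutation p 0.00671). Cryab, a small heat-shock protein that Schwann cells also make and that stands in the glia list too, was at medians of 6.76 and 14.6, with all 8 noise regions below the mock median (difference -0.75, SE 0.24, adjusted p 0.253). Ubb, a polyubiquitin gene, was at medians of 31.2 and 39.0 (difference -0.48, adjusted p 0.409). The 9 tested genes of the list with heat-shock factors, small heat-shock proteins, chaperonins and ubiquitin had a median of -0.34. Of these 8 were below 0, against 53% of all genes tested.

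Among chaperones, Hspa8, the constitutive cytosolic Hsp70, was at medians of 7.54 and 8.84 (difference -0.40, limma adjusted p 0.711). Hspa5, the Hsp70 of the endoplasmic reticulum, was at medians of 2.34 and 1.56, with 10 of 14 mock regions at 1 read (difference 0.41, adjusted p 0.629), while Hsp90b1, the Hsp90 of the same compartment, had a difference of -0.80 (SE 0.27, adjusted p 0.268). Hsp90ab1 and Hsp90aa1, the cytosolic pair, had differences of -0.48 and -0.17, the latter 0.003 without noise replicate 7. Of 20 genes of the Hsp70 list 17 were below 0, against 53% of all genes tested, with a median of -0.17. Of 9 in the Hsp90 list 4 were below 0, with a median of 0.02 that changed sign in some alternatives (-0.09 to 0.12). Hsph1 and Jun lay below the filter, with means of 1.72 and 1.89 after noise and 1.74 and 1.72 after mock exposure. The 11 genes of the unfolded protein response had a median of -0.14, with Calr, a lectin chaperone, at 0.72 and its membrane-bound relative Canx at -0.74, adjusted p 0.321 and 0.350.

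The first letters of the symbols moved with these differences. Genes from A to K (763 tested) had a median difference of -0.19 with 75.8% below 0, genes from L to M (377) one of -0.06, genes from N to R (2475) one of 0.04 and genes from S to Z (1060) one of -0.02. Set against the median of its own stretch, the Hsp70 list had a median of 0.02 with 9 of 20 genes below, the list of heat-shock factors and ubiquitin -0.15 with 8 of 9 below, the glia list -0.37 with 22 of 25 below the ribosomal list -0.35 with 65 of 79 below and the proteasome list 0.05 with 15 of 41 below. The stretches were chosen after values were seen, and the part of the symbol order in the results was not tested beyond this.

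Ribosomal protein genes formed the broadest set below 0. Of 79 cytosolic ribosomal protein genes, all of them tested, 65 (82.3%) had a difference below 0, against 53% of all genes tested. Their median was -0.31 (-0.38 to -0.23 over 29 alternatives). None passed the threshold by limma. At an unadjusted p below 0.05, 21 were lower and 0 higher, where 5.59% and 2.92% of all genes tested were. On the recovered reads edgeR called 0, with 12 lower and 1 higher at an unadjusted p below 0.05, where 290 of all 4643 genes reached that level. DESeq2 called 2, both lower, among 12 over all genes. Summed signal was 308.7, 483.7 and 527.0 in the lowest, median and highest noise region and 494.3, 583.1 and 672.5 in mock regions, with some overlap. Rpl19, of the large subunit, was at medians of 4.68 and 10.4 (difference -0.85, SE 0.26, limma adjusted p 0.187), and Fau, which encodes a ubiquitin-like protein fused to a small-subunit protein, at 7.15 and 12.0 (difference -0.83, SE 0.25, adjusted p 0.187). All 8 noise regions lay below the mock median for both. As these genes were picked for a small p over the same regions, such counts are tied to that choice. The share of all genes with such a count is not given here, for these or other named genes. Genes with copies or processed pseudogenes, as most ribosomal proteins have, may share probes or reads with them.

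Eif1, which guides start codon choice, and Naca, which binds nascent chains at the ribosome, were picked by the same rule. Eif1 was at medians of 5.46 and 12.5 with all 8 noise regions below the mock median (difference -0.93, SE 0.25, limma adjusted p 0.0908), and Naca at 1.56 and 6.24 with 7 of 8 below (difference -0.95, SE 0.28, adjusted p 0.187). Energy genes were more even: 49 of 75 subunits of the respiratory chain and ATP synthase were below 0 (median -0.15), and 12 of 20 genes of glycolysis and lactate (median -0.12). Ldhb, the lactate dehydrogenase subunit that favours lactate use, was at 1.04, 4.05 and 6.24 after noise and 4.68, 6.76 and 21.8 after mock exposure, with all 8 noise regions below the mock median (difference -1.06, SE 0.27, limma adjusted p 0.0724; exact permutation p 0.000422). It passed in 13 of 41 alternatives, among them the fits without noise replicate 1, 2, 3 or 6. Gapdh and Gpi1, enzymes of glycolysis, had differences of -0.59 and -0.63 (adjusted p 0.388 and 0.373).

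Proteasome subunits lay to the other side. Of 41 tested, 27 were above 0, with a median of 0.09 (0.05 to 0.25 over 29 alternatives, the latter with the negative probe subtracted, where the median of all genes was 0.10), against a median of -0.02 over all genes. Below 0 lay 34.1% of the 41, against 53% of all genes tested. The 512 olfactory receptor genes, which stand for genes near background, had a like median of 0.09, with 36.9% below 0. The shift of the proteasome list is therefore not particular to it. Limma called 0 of these genes, as did edgeR and DESeq2. At an unadjusted p below 0.05 limma found 5 higher and 1 lower, where 2.92% and 5.59% of all genes tested were. Psmd5, an assembly chaperone of the regulatory particle, was at 5.05 ± 1.02 (SD, n = 8) and 2.70 ± 1.48 (n = 14), with every noise region above the mock mean (difference 0.80, SE 0.27, limma adjusted p 0.266). The 7 immediate-early genes, which follow stimulation within minutes, had a median of 0.16 with 5 above 0; Maff, a small basic leucine zipper factor, was at 0.50 (adjusted p 0.572) and Zfp36, which speeds decay of cytokine messages, at 0.31. The 14 genes of glutathione and oxidative defence were split 7 and 7 (median 0.04), with Mt1, a metallothionein, at 0.44 and Gstp1, a glutathione transferase, at -0.55. The 16 genes of transcript elongation and RNA polymerase II, Elof1 among them, had a median of 0.12 that ran from about 0 to 0.29 over 29 alternatives, with 3 to 8 genes below 0, and no member but Elof1 was called.

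**Figure D4:**
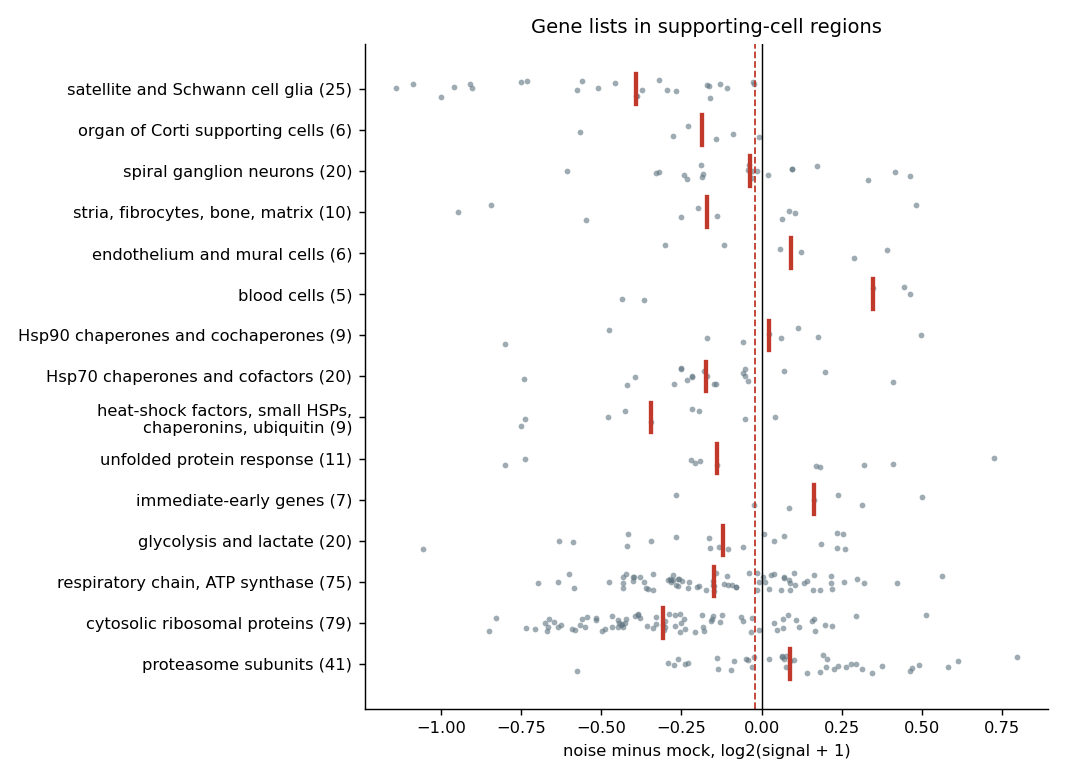
Each grey point is 1 tested gene by its noise minus mock difference on the log2(signal + 1) scale, in rows by gene list with the number of genes tested; red bars mark list medians, and the dashed line marks the median of all genes tested (-0.02). The glia list (median -0.39) and the ribosomal list (-0.31) lie to the left, and the proteasome list (0.09) and the immediate-early list (0.16) to the right. Olfactory receptor genes, with a median of 0.09 as well, are not drawn.

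The other genes named by the rule had low reads. Itih5, a hyaluronan-binding matrix protein, was at medians of 2.08 and 4.83 (difference -1.03, SE 0.27, limma adjusted p 0.0908), Camk2n1, an inhibitor of CaM kinase II, at 1.56 and 4.16 (-0.90, adjusted p 0.187), Rnaset2a, an acid ribonuclease, at 1.82 and 4.83 (-0.90, adjusted p 0.187) and Chst2, a sulfotransferase, at 1.79 and 4.42 (-0.90, adjusted p 0.187). Medians after noise were 2 reads for each of these 4 genes. A difference of this size between 2 and 4 reads rests on few counts per region.

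Differences below 0 were more frequent among abundant genes. In the top quartile of genes by level in mock neuron regions, which did not enter this comparison, 60.5% had a difference below 0 and the median was -0.08. In the other quartiles 48.5% to 52% were below 0, with medians from -0.02 to 0.01. All 4 called genes lay in the top quartile.

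Neuron regions of the series were compared to ask whether the effects differed by region type. In 50 regions fitted together, without 1 noise neuron region whose values were all equal, noise and mock neuron regions differed in 20 of the 4686 genes (0.427%), with a median difference of 0.04 over all genes. In that same fit the noise and mock supporting-cell regions differed in 17 genes, against 4 when the 22 regions were fitted alone. In neuron regions Elof1 had a difference of 1.29 (SE 0.21, limma adjusted p 4.21e-06), Pmp22 one of -0.61 (adjusted p 0.173) and Aatk one of -0.57 (adjusted p 0.199). By list, medians in neuron regions were -0.17 for the glia genes (20 of 25 below 0) and -0.15 for the ribosomal genes (62 of 79). They were -0.30 for the list with heat-shock factors (9 of 9), 0.13 for the proteasome genes (13 of 41) and -0.18 for the Hsp90 list (7 of 9). Over all genes 2007 of 4686 were below 0 in neuron regions. The effect in supporting-cell regions minus that in neuron regions was 1.19 for Elof1 (SE 0.33, unadjusted p 0.000322, adjusted p 0.593), -0.93 for Apoe (SE 0.29, adjusted p 0.593), -0.76 for Mbp (SE 0.33, adjusted p 0.676) and 0.89 for Nefl (SE 0.27, adjusted p 0.593). By limma 0 genes passed for this difference of effects, with 274 (5.85%) at an unadjusted p below 0.05; edgeR and DESeq2 on the recovered reads also called 0, with 196 and 124 at an unadjusted p below 0.05. With the capture area as a fixed block, over the 7 noise and 14 mock areas that gave both region types, 0 genes passed, with 276 at an unadjusted p below 0.05; the difference of effects was then 0.93 for Elof1 (SE 0.37, adjusted p 0.718) and 0.84 for Nefl (SE 0.25, adjusted p 0.570). With the area as a random block (correlation within an area 0.0414) 0 passed as well, with 297 at an unadjusted p below 0.05. The p-values of noise against mock are over regions and too small; those of the difference of effects also take regions, not animals, as units.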

How the data were processed

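GeoMx signal of 51 captured cochlear regions was used, with 22 supporting-cell regions in the main comparison. The authors deposited signal values per region, scaled to a common upper quartile of 3.12; DRAGEN, mm10 and GRCm38 are named in the submitters' processing notes without a role, and how genes were filtered is not given in the sources used here. Within a region values were whole multiples of what 1 read was worth (99.99% within 0.01), with a floor of 1 read; the reads so recovered gave the depths and medians in reads and the alternatives with edgeR 4.0.16 and DESeq2 1.42.0. In 66 entries a letter stood for a number and was treated as missing, 60 of them in noise and 6 in mock supporting-cell regions.

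Differences of log2(signal + 1) were fitted with limma 3.58.1 in R 4.3.3 (lmFit, eBayes with trend and robust, statmod 1.5.0) over these regions alone, for the 4686 of 6248 genes whose mean reached the 0.25 quantile (1.91), and Benjamini-Hochberg adjusted. The log scale understates changes of low genes. The prior degrees of freedom were infinite, so SEs rest on the spread common to genes of like mean. The difference of effects was fitted over 50 regions. Named genes had exact two-sided permutation tests, 30 in all and unadjusted. Most of these genes were picked for a small limma p over the same regions. Their small exact p-values are therefore not separate evidence, and 30 is not the number of genes they were picked from. Data of this comparison were also simulated, with 4637 genes in the fit. Of genes changed by 0.5, 1, 1.5 and 2 on the log2 scale, 2 of 43, 11 of 46, 27 of 42 and 38 of 44 were called, with 4 false calls. The dispersion was fitted on the recovered reads, with their floor of 1 read, at 9.77e-05, which adds almost nothing to counting error. That value is not a measure of how much the real regions vary. The simulation thus held almost no further spread between regions and does not give the sensitivity in the real ones.

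Named genes are those past the threshold whose mean reached the median of genes tested, those with the next smallest p up to 20, and a fixed set. A few genes that it picks are not reported here and were left out of the lists. The lists, the rule and the regions were chosen with earlier results of these data known. Replicate numbers did not pair regions. Symbols were matched to RefSeq for GRCm38.p6 (6233 current, 4 synonyms, 11 neither). Alternatives covered pseudocount, filter, scaling, covariates, tools and leaving out regions.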

Additional observations from a re-analysis of the deposited data

Results flagged for a closer look

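A gap test for single values (Dixon, 95% level, met by chance in about 1 of 20 groups) was applied to 41 quantities over the noise supporting-cell regions, and 7 met it. In replicate 2 the negative probe stood at 1.89, against 1.24 to 1.44 elsewhere, Pmp22 was at 12.5 (others 4.16 to 7.48) and Rgs19 at 15.6 (others 8.32 to 11.4). That replicate was the shallowest noise region, with 11768 recovered reads and 1 read worth 1.56. Replicate 1 stood apart for Coch, at 12.5 against 1.56 to 4.16, and for Fa2h, at 4.68 against 0.78 to 2.49. Mbp in replicate 3 was at 8.32, where the others reached 4.16. Hsf1 in replicate 6, the deepest noise region, was at 3.74, and the other 7 regions, each at 1 read, lay between 0.78 and 1.56.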

How the results depend on the processing

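The count of 4 called genes (1 higher, 3 lower) was 17 with all 51 regions in 1 fit with trend and without robust (3 higher, 14 lower), 17 with the 50 usable regions (3 and 14), 17 with neither trend nor robust (2 and 15), 2 by edgeR (0 and 2) and 12 by DESeq2 (0 and 12); the count tests leave out genes with a missing entry, Elof1 and Rgs19 among them, and the cause of the other changes was not tested. Leaving out 1 region at a time gave 3 to 8 genes. With the replicate number as a block 3 genes were called, 2 of them among the 4. The numbers did not pair the regions: over 8 same-numbered regions the correlation of deviations ran from -0.04 to 0.03, and 0 correlated best with their own number. Leaving out the 8 regions whose upper quartile was 2 reads, keeping only genes above 1 read, and the capture area as a block were chosen after seeing the data. The other alternatives gave 3 to 6 genes, and the difference of effects gave 0 in all 9 alternatives run.

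Signs changed in 4 named genes, all far from the threshold. Apod was at 0.0731 under quantile normalization. Snap25 was at 0.00792 (pseudocount 10), 0.0385 (negative probe subtracted), 0.15 (olfactory receptor covariate), 0.0803 (quantile normalization), 0.0171 (total reads), 0.00844 (edgeR) and 0.22 (replicate block), and between -0.194 and 0.239 when 1 region at a time was left out. Tubb3 was at 0.0671 (negative probe subtracted), 0.0114 (quantile normalization), 0.00308 (edgeR) and 0.18 (without the 8 regions whose upper quartile was 2 reads), and leaving out 1 region gave -0.156 to 0.110. For Hsp90aa1 that range was -0.301 to 0.00277, the latter without noise replicate 7. Subtracting the negative probe moved the median of all genes from -0.02 to 0.10. The upper quartile gene had 2 to 5 reads. On data simulated at the depths of these regions, 2 of 43 genes changed by 0.5 and 11 of 46 changed by 1 on the log2 scale were called, with 4 false calls. The simulation had a dispersion of 9.77e-05, which adds almost nothing to counting error and does not measure the spread of the real regions. It also had no regions of a common animal. It therefore does not give the sensitivity in the real regions, and the part of depth in the number of calls was not tested.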

Other observations

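Letters in place of numbers stood in 59 genes in noise and 6 genes in mock supporting-cell regions. Of the 38 such noise genes that were tested, 14 had a difference above 0, with a median of -0.09, and 1, Elof1, was called. Among the 5 genes of chemokine and inflammatory signalling tested, differences had a median of 0.04, with Relb, a subunit of NF-κB, at 0.18 and Rela, another subunit, at -0.14.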
